A study of Mus musculus with 60 samples.

Results

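The genes described here are 10 genes of the mammalian circadian clock, namely Per1, Per2, Per3, Cry1, Ciart, Arntl, Clock, Nr1d1, Nr1d2 and Dbp. They were taken from a table of 18088 genes by matching each Ensembl identifier to its symbol in GENCODE release M21, and all 10 were found and passed the filter on low values. RNA was sequenced from the prefrontal cortex of C57BL/6J mice at postnatal day 25, in 60 libraries. Their genotype was either wild type (WT) or heterozygous (Het) for Grin2b C456Y, a missense allele of the gene for the GluN2B subunit of the NMDA receptor. Pups of both sexes had vehicle, fluoxetine or lithium through their mother's milk from day 3 to day 24. Fluoxetine blocks the reuptake of serotonin. Lithium, used to stabilise mood, inhibits glycogen synthase kinase 3, an enzyme that also phosphorylates clock proteins. Each of the 6 genotype-by-drug groups held 10 libraries, 5 from females and 5 from males. The labels do not say at what time of day the tissue was taken, nor whether the numbered replicates were separate animals or litters. Each p-value thus reflects only how these libraries vary, which may be technical, and littermates could share a mother and her treatment.

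In the mammalian clock, the transcription factors CLOCK and BMAL1 (the product of Arntl) bind E-box sequences as a pair and switch on the Per, Cry, Ciart, Nr1d1, Nr1d2 and Dbp genes. PER and CRY proteins then return to the nucleus and inhibit the pair, and REV-ERB proteins, made from Nr1d1 and Nr1d2, repress Arntl through ROR elements, so that Arntl RNA runs opposite in phase to its targets. DBP activates genes with D-box sequences, among them Per genes, and in the forebrain Per1 and Per2 also respond to neuronal activity, and Per1 to glucocorticoids.

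Before the values, the promoters of the 4 members that changed under fluoxetine in WT mice are shown. Averaged over the sexes, their calls were made in every fit of that contrast. RefSeq windows of 250 bases before to 50 bases after the gene start, on build GRCm38.p6, were at hand for 9 of the 10 members (13 windows). Per2 was not matched. Capitals mark every match, on either strand, to the E-box CACGTG, the E-box variant CACGTT, the D-box TTANGTAA, the ROR element core TAGGTCA and the cAMP response element TGACGTCA. The glucocorticoid response element, 2 inverted hexamers 3 bases apart, was searched too. The 4 windows lie at chr4:151044616-151044915 (minus strand, Per3), chr3:95882179-95882478 (minus strand, Ciart), chr7:113207261-113207560 (plus strand, Arntl) and chr7:45704997-45705296 (plus strand, Dbp).
Per3: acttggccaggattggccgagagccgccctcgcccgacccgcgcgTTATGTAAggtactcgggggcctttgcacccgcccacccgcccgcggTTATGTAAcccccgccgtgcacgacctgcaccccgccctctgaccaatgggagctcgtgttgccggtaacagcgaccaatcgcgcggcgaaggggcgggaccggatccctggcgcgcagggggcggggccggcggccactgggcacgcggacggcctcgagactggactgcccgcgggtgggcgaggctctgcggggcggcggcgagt
Ciart: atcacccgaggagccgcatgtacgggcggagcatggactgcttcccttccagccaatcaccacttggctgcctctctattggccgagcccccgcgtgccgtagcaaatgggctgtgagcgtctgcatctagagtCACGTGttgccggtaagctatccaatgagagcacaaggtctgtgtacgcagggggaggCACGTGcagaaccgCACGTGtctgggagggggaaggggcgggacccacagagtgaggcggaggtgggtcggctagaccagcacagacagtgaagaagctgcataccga
Arntl: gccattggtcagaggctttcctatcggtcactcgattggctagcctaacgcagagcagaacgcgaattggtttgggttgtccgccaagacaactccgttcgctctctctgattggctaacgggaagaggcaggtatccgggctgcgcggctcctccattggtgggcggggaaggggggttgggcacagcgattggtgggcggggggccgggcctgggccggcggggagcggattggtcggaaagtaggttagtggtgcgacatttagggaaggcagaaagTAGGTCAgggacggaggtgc
Dbp: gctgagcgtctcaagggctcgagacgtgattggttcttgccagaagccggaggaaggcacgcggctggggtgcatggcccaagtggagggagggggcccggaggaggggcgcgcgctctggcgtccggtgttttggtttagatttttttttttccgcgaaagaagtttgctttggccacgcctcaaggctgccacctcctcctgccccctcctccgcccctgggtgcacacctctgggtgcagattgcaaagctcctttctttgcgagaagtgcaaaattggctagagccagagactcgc
The Ciart window held 3 E-boxes, which began 116, 58 and 44 bases before the gene start. The Per3 window held 2 D-boxes, 205 and 158 bases before the start. The Arntl window held 1 ROR element core, 30 bases past the RefSeq start of that window, which lies downstream of the GENCODE start of Arntl (113207465). The overlapping second window of Arntl (chr7:113207215-113207514) ended before the match. All distances here are from the RefSeq start of the window, which can differ from the GENCODE start. No motif searched was in the Dbp window. E-boxes were also in windows of Cry1 and Per1, and the E-box variant in those of Cry1 and Nr1d1. Over all 32851 windows of the table the E-box was in 7.15%, its variant in 4.68%, the D-box in 2.32%, the ROR element core in 2.61%, the cAMP response element in 1.79% and the glucocorticoid response element in 0.00913%. No 2 matches overlapped in the members' windows. A match describes the letters of the window and does not show that a factor binds there.

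The libraries held 23901635 to 37769417 reads. The tissue expressed markers of cortical neurons and glia in every library. The summed markers of olfactory bulb varied widely inside every group, from 959 to 19100 in WT vehicle and from 778 to 17470 in Het vehicle, and their part in the results was not tested. Of 6 genes marking the suprachiasmatic nucleus, the site of the central clock, 2 were in the table. In bulk tissue fewer cells of a type and less RNA per cell cannot be told apart.

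Scaled by the length of the longest transcript, the clock repressor gene Nr1d1 and the output gene Dbp were the most abundant members, with means of 946 and 921 normalised reads per kilobase over all libraries. Nr1d2 (619) and Per1 (601) followed, then Clock (310), Per3 (243), Per2 (230), Arntl (208), Ciart (196) and Cry1 (132). Nr1d1 and Dbp, and likewise Nr1d2 and Per1, differed by less than the SD of either gene inside any genotype-by-drug group.

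**Figure D1:**
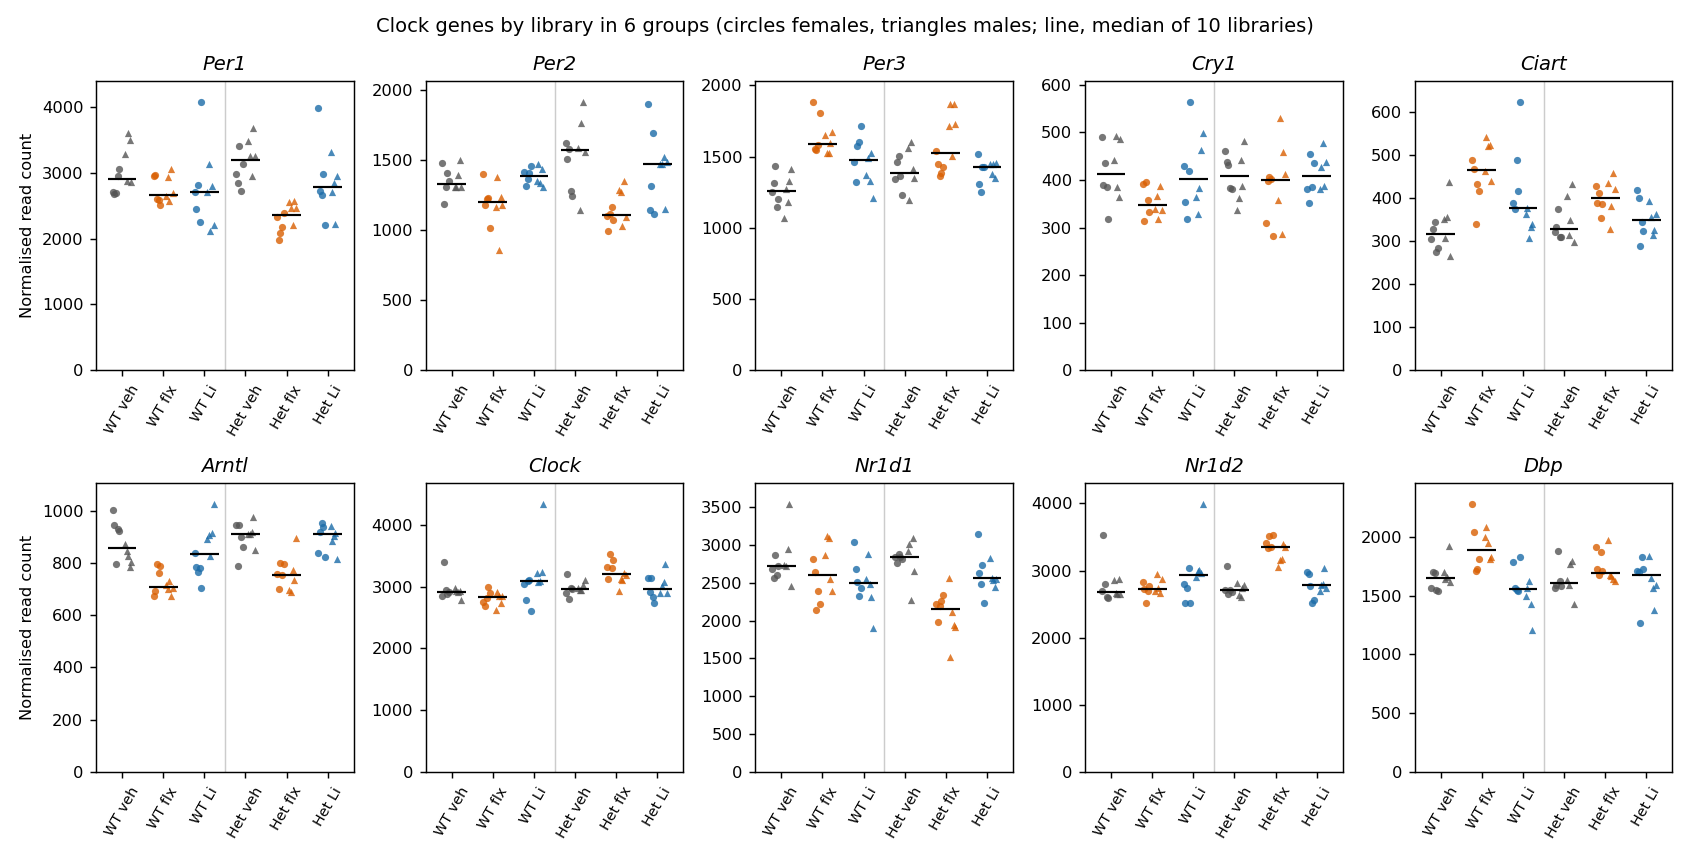
Normalised read counts (vertical axis, from 0) of the 10 clock genes in each library, by genotype and drug (veh, vehicle; flx, fluoxetine; Li, lithium), with females as circles, males as triangles and the median of 10 libraries as a line. Per3 in WT fluoxetine (1523 to 1880) lay wholly above WT vehicle (1067 to 1437), and Nr1d2 in Het fluoxetine (3053 to 3536) wholly above WT fluoxetine (2520 to 2944).

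Genotype alone was compared first, in the mice given vehicle. No clock gene was called between Het and WT mice at an adjusted p below 0.05 (limma on log2(value + 1), Benjamini-Hochberg over 17810 genes), against 0.59% of all genes. By edgeR (0.506% of all genes) and by DESeq2 (0.682%) the count was also 0. At an unadjusted limma p below 0.05, 1 member passed, as did 1736 of 17810 genes. That member was Per3, which makes a period protein with a lesser part in rhythm than PER1 and PER2. Per3 ran from 1067 to 1437 (median 1261) in WT and from 1193 to 1605 (median 1388) in Het vehicle libraries, a log2 fold of 0.15 (SE 0.05, limma adjusted p = 0.244), and the groups overlapped. The other 9 members had log2 folds between -0.02 (Cry1) and 0.15 (Per2). The 95% interval was narrowest for Clock, at -0.07 to 0.10 around a log2 fold of 0.02, and widest for Cry1, at -0.21 to 0.16.

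Under lithium the genotypes were again compared, and limma called 0 members against 0.0281% of all genes. At an unadjusted p below 0.05 the count was 0, against 2031 of 17810 genes. By edgeR it was 0 (0.0338% of all genes) and by DESeq2 0 (0.113%). The folds ran from -0.16 (Ciart, adjusted p = 0.443 by limma) to 0.09 (Arntl, adjusted p = 0.443).

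Fluoxetine in WT mice changed 4 of the 10 clock genes, against 8.43% of all genes called (4.35% higher and 4.08% lower). Per3, Ciart and Dbp rose and Arntl fell, by 15.7% to 42.6% in size, and the remaining 6 were not called. The WT vehicle libraries serve as the control for both drugs, so the fluoxetine and lithium contrasts share them.

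Ciart, whose product CHRONO is a repressor of the CLOCK:BMAL1 pair, ran from 265 to 438 (median 317) in WT vehicle and from 340 to 540 (median 465) in WT fluoxetine libraries. All 10 fluoxetine libraries lay above the vehicle mean of their sex, though the ranges overlapped. The log2 fold was 0.51 (SE 0.08, limma adjusted p = 2.34e-05), or 42.6%. Ciart lies on chromosome 3 at 95878503 to 95882251.

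Per3 (chromosome 4, 151003652 to 151044665) went from 1067 to 1437 (median 1261) in vehicle to 1523 to 1880 (median 1588) in fluoxetine. It was the only member whose 2 groups did not overlap, a separation that 0.545% of all genes showed in this contrast. Its log2 fold was 0.37 (SE 0.05, limma adjusted p = 4.18e-06), or 29.5%.

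Arntl (chromosome 7, 113207465 to 113314126) fell from 785 to 1001 (median 858) to 673 to 795 (median 709.5). The 2 highest fluoxetine libraries lay above the lowest vehicle library, and all 10 fluoxetine libraries lay below the vehicle mean of their sex. The log2 fold was -0.27 (SE 0.04, limma adjusted p = 4.13e-05), or -16.9%.

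Dbp (chromosome 7, 45705088 to 45710203), a clock output gene, went from 1539 to 1922 (median 1650) to 1706 to 2276 (median 1887). The groups overlapped, with all 10 fluoxetine libraries above the vehicle mean of their sex. Its log2 fold was 0.21 (SE 0.06, limma adjusted p = 0.0137), or 15.7%.

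The uncalled members include Cry1 (chromosome 10, 85131700 to 85185064), a strong repressor of CLOCK:BMAL1, at a log2 fold of -0.23 (SE 0.09, limma adjusted p = 0.112) with all 10 libraries below the vehicle mean of their sex. Fitted to the WT fluoxetine and vehicle libraries alone, Cry1 was called at an adjusted p of 0.0494. Per2 (chromosome 1, 91415982 to 91459324) was at -0.20 (adjusted p = 0.114 by limma) and Per1 (chromosome 11, 69095217 to 69109960) at -0.13 (adjusted p = 0.359). Nr1d1 (chromosome 11, 98767932 to 98775333), Clock (chromosome 5, 76209868 to 76304792) and Nr1d2 (chromosome 14, 18204054 to 18239127) were at -0.09, -0.07 and -0.02, and the 95% interval of Nr1d2 was -0.11 to 0.07.

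The 4 calls were made in each of 20 fits with 1 library left out, and after correction for GC content (11.9% of all genes called), with terms for 10 libraries low in pseudogenes (8.75%) or 11 without reads of the pseudogene Rps6-ps4 (8.6%), by edgeR (8.44%) and by DESeq2 (9.36%). In single sexes Per3, Ciart and Arntl were called in females (2.18% of all genes called) and in males (2.13%), and Dbp was called in neither. Ciart was at 0.48 in females and 0.55 in males, Per3 at 0.39 and 0.35, and Arntl at -0.31 and -0.23. With 1 of the 10 libraries of a sex left out, Per3 was called in every fit, Ciart in 8 of 10 for females and 10 of 10 for males, and Arntl in 10 of 10 for females and 2 of 10 for males. Ciart in females was not called without WT fluoxetine female replicate 2 or WT vehicle female replicate 4, and Arntl in males was called only without WT vehicle male replicate 4 or 5. For sex by fluoxetine, averaged over the genotypes, limma, edgeR and DESeq2 each called 0 members, with 0 at an unadjusted p below 0.05. Of all genes 0% were called by limma, and 710 of 17810 passed an unadjusted p of 0.05.

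**Figure D2:**
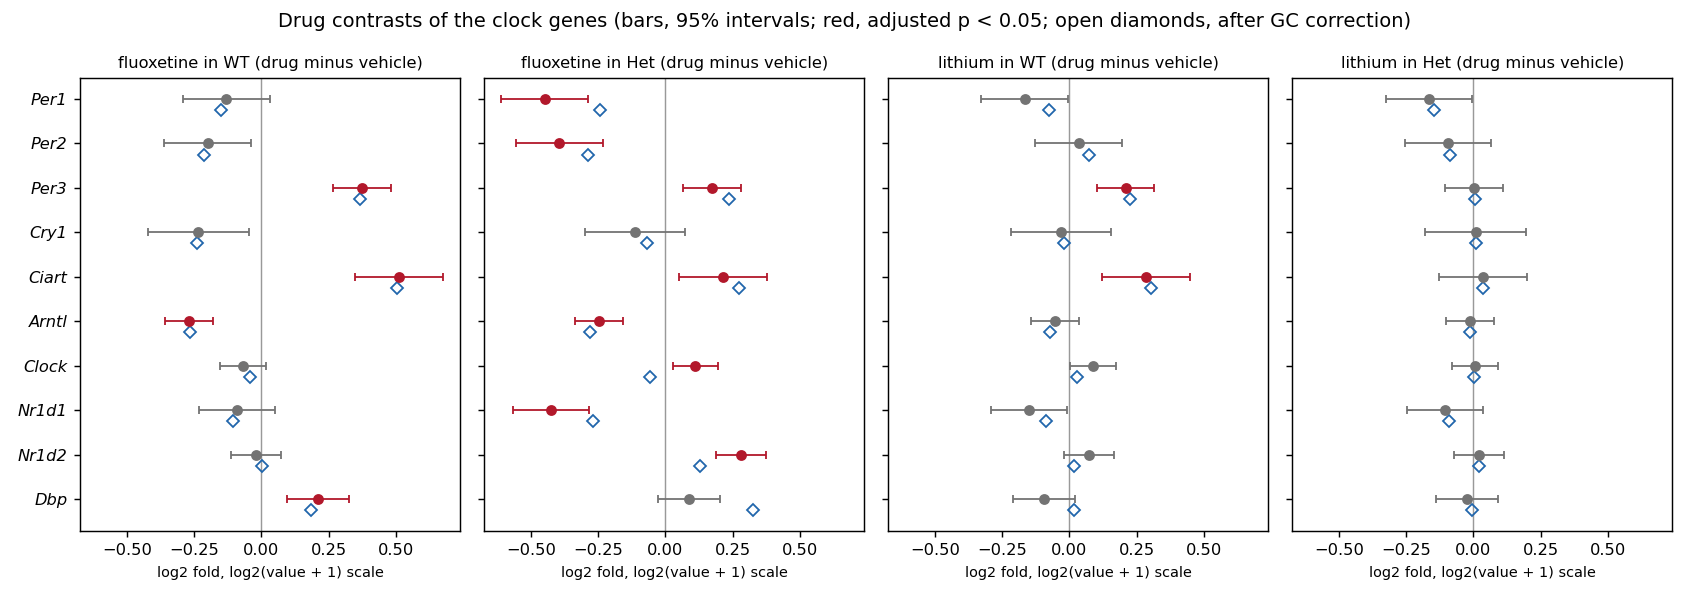
Log2 folds of drug over vehicle on the log2(value + 1) scale (horizontal axis) for the 10 clock genes in WT and Het mice, with 95% intervals as bars, red where the adjusted p was below 0.05, and the estimate after GC correction as an open diamond. In WT fluoxetine the open diamonds sit on the main values, with Ciart at 0.51 and 0.50. In Het fluoxetine those of Per1 (-0.45 and -0.24), Nr1d2 (0.28 and 0.13), Dbp (0.09 and 0.33) and Clock (0.11 and -0.06) lie apart.

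Some genes near the clock moved in the same contrast. Of 28 further genes of clock transcription, protein turnover and output, 4 rose and 3 fell under fluoxetine in WT mice. Of all genes 8.43% were called (4.35% higher and 4.08% lower). Npas2, a CLOCK paralogue of the forebrain that also pairs with BMAL1, rose by a log2 fold of 0.30 (SE 0.06), and Arntl2, the paralogue of Arntl, by 0.37 (SE 0.07). Usp2, a deubiquitinase gene with rhythmic expression, rose by 0.19, and Tipin, the partner of Timeless, by 0.29. Bhlhe40, whose product DEC1 represses E-box genes, fell by 0.48 on the log2 scale (SE 0.08), Nfil3, the repressor at D-boxes, fell by 0.42 and Nampt fell by 0.16. With the library term Nampt was not called (adjusted p = 0.0688 by limma), which left 4 higher and 2 lower. The median log2 fold over the 28 was -0.00, against 0.00 over all genes.

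Lists of genes that respond to other signals moved beside them, in a contrast where 8.43% of all genes were called. Of 18 immediate-early genes, which neuronal activity induces, 8 fell and 0 rose in WT fluoxetine, and their summed level was 17171 to 26005 against 23013 to 33607 in vehicle. Of 16 glucocorticoid-responsive genes 7 rose and 0 fell, with summed levels of 22557 to 26784 against 21063 to 23519. Among 9 temperature-responsive genes the cold-inducible Cirbp rose by 0.29 and the chaperone gene Dnajb1 fell by 0.16. Of 5 endothelial markers 3 fell, with summed levels of 4143 to 6822 against 5158 to 6752, and none of the 5 was at 0 in any library. Pericytes and smooth muscle, and oligodendrocyte precursors, had 1 marker lower each. No marker of excitatory neurons, interneurons, astrocytes, oligodendrocytes, microglia, meninges, olfactory bulb, striatum or suprachiasmatic nucleus was called. The part of these lists in the change of the clock genes was not tested.

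Lithium in WT mice gave 2 calls among the 10 clock genes, a share near the 19.2% of all genes called (9.34% higher and 9.87% lower). Per3 rose from 1067 to 1437 (median 1261) in vehicle to 1213 to 1715 (median 1478) in lithium, a log2 fold of 0.21 (SE 0.05, limma adjusted p = 0.00459), with 9 of 10 lithium libraries above the vehicle mean of their sex. Ciart rose from 265 to 438 (median 317) to 308 to 622 (median 376), a log2 fold of 0.28 (SE 0.08, limma adjusted p = 0.0107), with 7 of 10 libraries above. No member was without overlap between the groups, as 0.23% of all genes were. By edgeR 2 members were called, where 19% of all genes were. Both calls were made with any 1 library left out, and Ciart was not called when the WT lithium and vehicle libraries were fitted alone (adjusted p = 0.0588 by limma).

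The other 8 members were not called under lithium in WT mice. Nr1d1 was at -0.15 and Per1 at -0.17 (adjusted p = 0.124 and 0.136 by limma). Without WT lithium female replicate 5, the library with the highest Per1 value of all 60 (4064), Per1 was at -0.23 and was called (adjusted p = 0.0212). Without WT vehicle female replicate 2, Clock (0.11, adjusted p = 0.0473) and Nr1d2 (0.11, adjusted p = 0.0458) were called as well, so that the count was 4.

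Lithium in WT mice was also tested inside each sex. In females, where 11.8% of all genes were called, Ciart went from 275 to 344 (median 306) to 375 to 622 (median 417), a log2 fold of 0.55 (limma adjusted p = 0.00133). The 5 and 5 libraries did not overlap, as those of 5.58% of all genes did not. Per3 rose by 0.27 and Arntl fell by 0.25 in the same females. Neither was called without WT lithium female replicate 5, nor Per3 without WT vehicle female replicate 4. In males, where 20.8% were called, Clock was at 0.21, Nr1d2 at 0.20, Per1 at -0.32 and Dbp at -0.23, each called, while Ciart was at 0.02. None of the 4 was called without WT lithium male replicate 5, where 3.28% of all genes were called and the folds were 0.12, 0.11, -0.27 and -0.16. In WT lithium male replicate 5 genes of higher GC content read lower (r = -0.49 between GC content and its deviation over all genes). GC content is 40.9% in Clock, 41.8% in Nr1d2, 59.4% in Per1 and 61.6% in Dbp. Its part in these male values was not tested. With any 1 of the 10 male libraries left out, Clock was called in 9 of 10 fits, Nr1d2 in 7, Per1 in 5 and Dbp in 4. The other libraries whose omission ended a call were WT vehicle male replicates 2 and 3 for Nr1d2, replicates 1, 3 and 4 and WT lithium male replicate 3 for Per1, and replicates 1 to 4 and WT lithium male replicate 4 for Dbp. The difference between the sexes, tested as sex by lithium over both genotypes, was not called for any member by limma, edgeR or DESeq2. There limma and edgeR called 0% of all genes, and DESeq2 4.56% of the 8617 genes to which it gave an adjusted p. At an unadjusted p below 0.05 it passed for 5 members and for 22.3% of all genes, with Ciart at 0.33 (adjusted p = 0.119 by limma) and Arntl at -0.17 (adjusted p = 0.127).

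Of the 28 further clock genes 6 rose and 1 fell under lithium in WT mice, where 19.2% of all genes were called. With the groups fitted alone 4 were higher and 0 lower, and with the library term 8 and 1. Arntl2 rose by 0.38, Prkaa2, a subunit gene of the energy sensor AMPK that phosphorylates CRY, by 0.28, Npas2 by 0.20 and Usp2 by 0.20, and Nfil3 fell by 0.26 and was not called after GC correction (adjusted p = 0.0819 by limma). Markers of several cell types were lower in the same contrast, namely 5 of 6 for astrocytes, 4 of 5 for microglia, 4 of 5 for endothelium, 5 of 5 for pericytes and smooth muscle and 4 of 5 for meninges. The summed endothelial markers ran from 3956 to 5439 in lithium and from 5158 to 6752 in vehicle, those of astrocytes from 28236 to 38916 and from 34599 to 41988, and those of microglia from 3583 to 5757 and from 5623 to 6897. Those of pericytes and smooth muscle ran from 3197 to 6020 and from 5713 to 6762, and those of meninges from 1201 to 2924 and from 1638 to 3332, with no marker at 0 in these 5 lists. Of the 18 immediate-early genes 7 fell and 0 rose in this contrast, and of the 16 glucocorticoid-responsive genes 7 rose and 0 fell. The part of all these lists in the values of Per3 and Ciart was not tested.

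Lithium in Het mice gave 0 calls among the members by limma, edgeR and DESeq2. The shares of all genes were 0.983% by limma and 0.951% by edgeR, and by DESeq2 2.36% of 15278 genes given an adjusted p. At an unadjusted limma p below 0.05, 1 member passed, as did 2450 of 17810 genes. That member was Per1, which went from 2725 to 3682 (median 3194) to 2201 to 3978 (median 2780), a log2 fold of -0.16 (adjusted p = 0.351 by limma), with overlap. Per3 was at 0.00 with a 95% interval of -0.11 to 0.11, and Ciart at 0.04 with an interval of -0.13 to 0.20. The difference between the genotypes in the response to lithium was called for 0 members by limma, edgeR and DESeq2, against 0.0674% of all genes by limma. In it 2 members, and 1969 of 17810 genes, passed an unadjusted limma p of 0.05. The 2 members were Per3 at -0.21 (adjusted p = 0.276 by limma) and Ciart at -0.25 (adjusted p = 0.409).

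With fluoxetine, Het mice had 4 members called higher and 4 called lower, where 39% of all genes were called (19.1% higher and 19.9% lower). The libraries of this group stood apart from the rest of the series. Of 10 Het fluoxetine libraries 9 were low in a set of 16 pseudogenes, as was 1 other library, WT vehicle female replicate 2. In all 10 Het fluoxetine libraries genes of higher GC content read lower, with a correlation of -0.31 to -0.10 between GC content and a library's deviation over all genes. In the other groups that correlation ran from -0.49 to 0.34. The members differ in GC content, from 40.9% in Clock and 41.8% in Nr1d2 to 59.4% in Per1 and 61.6% in Dbp. The members' values in these mice are therefore also given after GC correction and from a model holding a term for the 10 low libraries.

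Per1 fell from 2725 to 3682 (median 3194) in Het vehicle to 1971 to 2572 (median 2359) in Het fluoxetine, and the groups did not overlap, as 4.12% of all genes did not. The log2 fold was -0.45 (SE 0.08, limma adjusted p = 2.19e-05), -0.24 after GC correction (adjusted p = 0.0142) and -0.37 with the library term (adjusted p = 0.395). Per2 fell from 1145 to 1914 (median 1573) to 997 to 1355 (median 1111), by 0.39 on the log2 scale (SE 0.08, limma adjusted p = 0.000127). Its fold was -0.29 after GC correction and -0.24 with the library term.

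Nr1d1, the gene of REV-ERB alpha, fell from 2276 to 3091 (median 2836) to 1519 to 2563 (median 2147), with a log2 fold of -0.43 (SE 0.07, limma adjusted p = 6.2e-06). After GC correction it was at -0.27 and with the library term at -0.18. Its paralogue Nr1d2, the gene of REV-ERB beta, went the other way, from 2610 to 3063 (median 2708) to 3053 to 3536 (median 3347). The ranges of Nr1d2 overlapped only by its highest vehicle library, and the log2 fold of 0.28 (SE 0.05, limma adjusted p = 5.48e-06) was 0.13 after GC correction and 0.06 with the library term.

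Arntl fell from 789 to 976 (median 909.5) to 690 to 893 (median 754), a log2 fold of -0.25 (SE 0.04, limma adjusted p = 2.25e-05). Its value was -0.28 after GC correction and -0.33 with the library term, where the adjusted p was 0.0589. With the Rps6-ps4 term, Arntl was the 1 member called, at -0.29, where 1.86% of all genes were. Ciart (0.21, adjusted p = 0.0329 by limma) and Per3 (0.17, adjusted p = 0.00864) rose, as 9 of 10 libraries of each lay above the vehicle mean of their sex. After GC correction these were 0.27 and 0.24, and with the library term 0.22 and 0.13, where neither was called.

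Clock rose by 0.11 (adjusted p = 0.0306 by limma), but this value turned to -0.06 after GC correction and to -0.04 with the library term, neither of them called. Dbp was not called at 0.09, was called at 0.33 after GC correction and was not called at 0.15 with the library term. Cry1 was called in none of the 3, at -0.11, -0.07 and -0.18. With 1 library left out, Ciart kept its call in 11 of 20 fits and Clock in 16 of 20. In all, 8 members were called after GC correction, where 21.4% of all genes were, and 0 with the library term, where 0.275% were. That term leaves 1 Het fluoxetine library outside the low set, male replicate 1, which had the highest Nr1d1 (2563) and Dbp (1969) and the lowest Clock (2926) and Nr1d2 (3053) of its group. The group and the low libraries can hardly be separated in these data, and for 9 of the 10 they cannot be told apart.

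**Figure D3:**
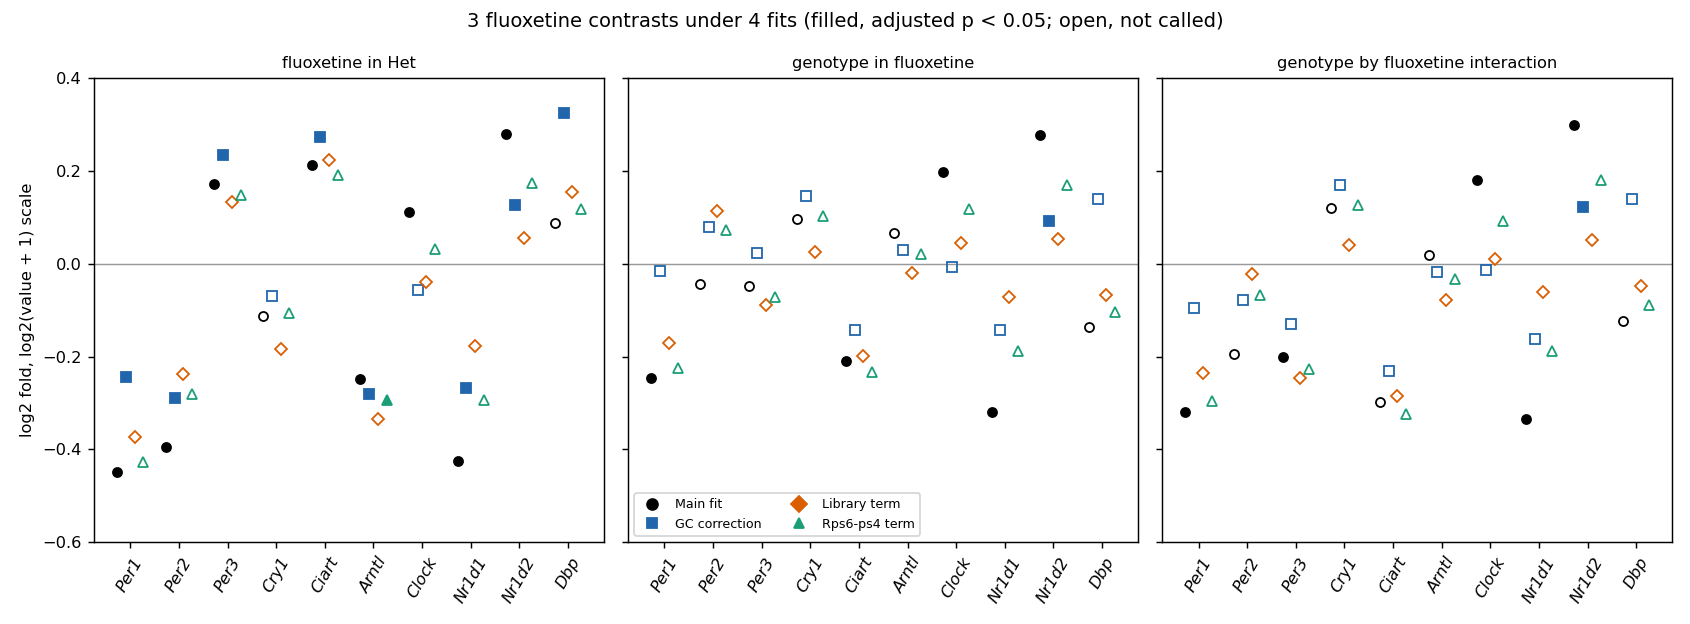
Log2 folds on the log2(value + 1) scale (vertical axis) of the 10 clock genes in 3 fluoxetine contrasts, from the unadjusted model, after GC correction, and with terms for the 10 libraries low in pseudogenes or the 11 without reads of Rps6-ps4. Filled symbols passed an adjusted p of 0.05. The count of filled symbols in fluoxetine in Het was 8, 8, 0 and 1, in genotype in fluoxetine 5, 1, 0 and 0, and in the interaction 5, 1, 0 and 0.

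Of the 28 further clock genes 9 rose and 5 fell under fluoxetine in Het mice, where 39% of all genes were called. After GC correction 5 were higher and 3 lower, and 0 were called with the library term or with the Rps6-ps4 term. Bhlhe40 fell by 0.45 and Nfil3 by 0.45, and both were still called after GC correction (-0.46 and -0.34) and not with the library term (-0.47 and -0.29, adjusted p = 0.267 and 0.673 by limma). Tipin (0.33), Wee1 (0.26) and Nampt (0.23) rose. After GC correction Wee1 was at 0.26 and called, and Tipin and Nampt were at 0.16 and 0.05 and not called. With the library term the 3 were at 0.07 (Tipin), 0.14 (Wee1) and 0.07 (Nampt), none of them called. Of the 18 immediate-early genes 13 fell and 0 rose, and 10, 0 and 2 were lower after GC correction, with the library term and with the Rps6-ps4 term. Of the 16 glucocorticoid-responsive genes 10 rose and 1 fell, and under the same 3 alternatives 9, 0 and 1 were higher and 0 lower. Summed levels of the immediate-early genes were 13262 to 22097 in Het fluoxetine and 23295 to 33259 in Het vehicle. Those of the glucocorticoid-responsive genes were 21812 to 26841 and 20800 to 23459. The part of both lists in the clock genes was not tested.

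Between the genotypes under fluoxetine 5 members were called, where 39.5% of all genes were (19.6% higher and 19.9% lower). In Het mice Nr1d2 (0.28) and Clock (0.20) were higher and Nr1d1 (-0.32), Per1 (-0.25) and Ciart (-0.21) lower. Nr1d2 ran from 2520 to 2944 in WT and from 3053 to 3536 in Het fluoxetine libraries without overlap, which 5.09% of all genes showed. After GC correction Nr1d2 was the 1 member called, at 0.09, where 12.3% of all genes were called, and with the library term 0 members were called, where 0.0393% were, and 0 with the Rps6-ps4 term, where 0.0842% were. Under GC correction and the library term Per1 was at -0.02 and -0.17, Nr1d1 at -0.14 and -0.07, Ciart at -0.14 and -0.20, and Clock at -0.01 and 0.05, so that Clock turned sign under the first. Ciart kept its call in 11 of the 20 fits that drop 1 library. By edgeR 6 members were called, where 39.4% of all genes were, and by DESeq2 6, where 41.8% were.

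The test of whether fluoxetine acted differently in the 2 genotypes called 5 members, against 24% of all genes (11.9% higher and 12% lower). The difference in log2 fold, Het minus WT, was -0.32 for Per1, -0.20 for Per3 and -0.34 for Nr1d1, and 0.18 for Clock and 0.30 for Nr1d2 (limma adjusted p = 0.0339, 0.0465, 0.0121, 0.0229 and 0.0013). After GC correction Nr1d2 was the 1 member called, at 0.12, and the library term left 0 calls, where 7.78% and 0.0449% of all genes were called. Under GC correction and the library term Per1 was at -0.10 and -0.23, Per3 at -0.13 and -0.25, Nr1d1 at -0.16 and -0.06, Clock at -0.01 and 0.01, and Nr1d2 with the library term at 0.05. Arntl, which fell in both genotypes, was at 0.02 with a 95% interval of -0.11 to 0.15. Ciart was at -0.30 (adjusted p = 0.0526 by limma), -0.23 after GC correction and -0.29 with the library term. With 1 library left out Per3 kept its call in 14 of 40 fits and Per1 in 31 of 40. Per3 was also not called with the replicate number as a block (adjusted p = 0.0532 by limma) or with trimmed mean of M values factors (adjusted p = 0.0511).

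Females and males, compared over all 6 groups, differed in 0 members by limma, edgeR and DESeq2, against 0.107% of all genes by limma. At an unadjusted limma p below 0.05 the count was 0, against 716 of 17810 genes. The log2 differences were at most 0.06 in size.

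The spread between replicates was examined because clock genes differ with the time of day and the labels give no time. The SD of each member about its group and sex mean, on the log2 scale, ran from 0.09 (Clock) and 0.10 (Arntl and Nr1d2) to 0.19 (Per1, Per2 and Ciart) and 0.22 (Cry1), with Per3 at 0.12, Dbp at 0.13 and Nr1d1 at 0.16. The median of all genes tested was 0.16. Low genes vary more, so each member was also ranked among the 500 genes nearest to it in mean level. Per1 was at percentile 93.2, Per2 at 91.6, Cry1 at 87, Nr1d1 at 86.6, Ciart at 78.8, Dbp at 72.2, Per3 at 65.6, Nr1d2 at 45.4, Clock at 35.6 and Arntl at 25.4. After GC correction the SD of Clock was 0.05 and that of Nr1d2 0.05, while Per1 (0.17), Per2 (0.18) and Cry1 (0.22) stayed near their values.

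Inside groups several members varied together. How often pairs of other genes do so was not tested, so the count of pairs does not set the clock genes apart. Of 45 pairs, 13 correlated over the 60 libraries once group means were removed, 10 positively and 3 negatively (permutation test within groups, 100000 permutations, two-sided, Benjamini-Hochberg adjusted p below 0.05), and 12 of them also by rank. Per1 and Ciart had r = 0.61 (rho = 0.57) and Per1 and Per2 r = 0.55 (rho = 0.56), with a permutation p of 1e-05, the smallest the permutations can give, and an adjusted p of 0.00015. Dbp correlated with Ciart (r = 0.54, rho = 0.50, adjusted permutation p = 0.00045) and with Nr1d1 (r = 0.55, rho = 0.58). Cry1 ran against Nr1d1 (r = -0.52, rho = -0.56) and Per3 against Arntl (r = -0.36, rho = -0.37).

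Without the 2 libraries farthest from the median of the first gene, r was 0.51 for Per1 and Ciart, 0.51 for Per1 and Per2, 0.49 for Dbp and Ciart, 0.54 for Nr1d1 and Dbp, -0.53 for Cry1 and Nr1d1 and -0.36 for Per3 and Arntl. In the 50 libraries outside the low set the same pairs were at 0.65, 0.54, 0.59, 0.59, -0.48 and -0.37. The pair with the highest r, Clock and Nr1d2 (r = 0.84, rho = 0.79), was at 0.35 after GC correction, and Clock and Dbp went from -0.52 to -0.28. Nr1d1 and Nr1d2, at -0.11 before it, were at 0.55 after it. In the corrected values 11 pairs were called, 8 of them also among the 13. Per3 with Arntl was not called there, at r = -0.35, and Cry1 with Nr1d1 was the 1 negative pair called.

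**Figure D4:**
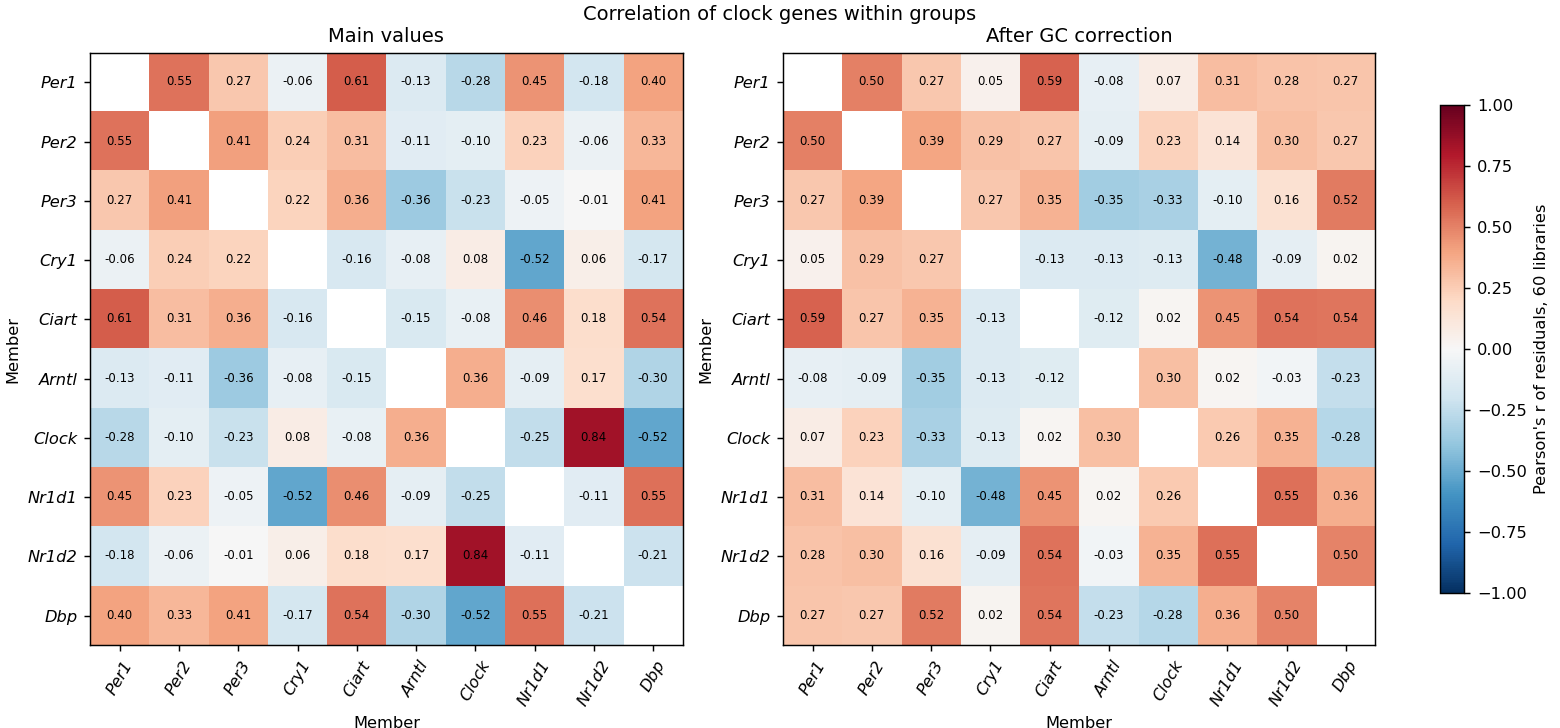
Pearson's r between clock genes over 60 libraries, after removing the mean of each genotype, drug and sex group, in the main values (left) and after GC correction (right), on a colour scale from -1 to 1. Per1 with Ciart is at 0.61 and 0.59, Clock with Nr1d2 at 0.84 and 0.35, and Nr1d1 with Nr1d2 at -0.11 and 0.55.

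The gene whose residuals were most like those of each member was also found among all genes tested, as a description over the same 60 libraries. For Per1 this was Nab2 (r = 0.82, and 0.79 after GC correction), a corepressor gene of EGR factors. For Per2 it was Bhlhe40 (0.61 and 0.61), for Per3 Hjurp (0.69 and 0.67), for Ciart Sord (0.67 and 0.69), for Cry1 Pcf11 (0.52 and 0.54) and for Nr1d1 Foxk1 (0.69 and 0.60). Clock was most like Rb1cc1 (0.93 and 0.74) and Nr1d2 most like Osbpl8 (0.93 and 0.74). The 5 most like Arntl were Kcnk1, Parp6, Otub2, Trim37 and Zfp365, with r of 0.62 to 0.66 and 0.35 to 0.62 after GC correction. The 5 most like Dbp were Mrps15, Tmem191c, Ajm1, Tmem145 and Sptbn4, with r of 0.65 to 0.68 and only 0.15 to 0.47 after it.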

How the data were processed

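The deposited table holds a signal per gene and library that is never negative, called normalised read count here. Within each column the deposited signal values were whole multiples of 1 step, as gene reads divided by a factor per library would be. No source used here records that step by the authors. Dividing by the step gave whole reads within 0.001 for 100% of values. The submitters' processing notes list Salmon 0.11.2, DESeq2 1.19.11, R 3.6.0 and GRCm38 with no role for each. The use of strand in counting is not stated there. Libraries were made with a stranded kit, per the labels' protocols.

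Symbols, coordinates, lengths and GC content came from GENCODE M21, which held 18077 of 18088 identifiers. The test was limma 3.58.1 (R 4.3.3, trend and robust settings) on log2(value + 1) for the 17810 genes that reached a value of 10 in 5 or more libraries, in a model of 12 group means (48 residual degrees of freedom). Contrasts average the sexes, so 10 libraries are set against 10, and adjustment is over all genes tested. Fold changes understate low genes. Alternatives were factors by trimmed mean of M values, no filter, a pseudocount of 5, the groups alone, the replicate number as a block, a GC correction (loess, span 0.3), terms for 10 libraries low in 16 pseudogenes or 11 without reads of Rps6-ps4, 3 libraries left out, edgeR 4.0.16 and DESeq2 1.42.0 on the recovered reads, and each library left out. Leaving out libraries in the contrasts of 1 sex was added after seeing the data. Shares called by DESeq2 are over the genes to which it gave an adjusted p, which ran from 8617 to 18081 by contrast. Spread and correlation used residuals from the 12 group means (Python 3.11.15).

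The members and lists were chosen with earlier results of these data known. All 10 members are given. For each member the gene most like it by residuals is named, and for Arntl and Dbp the 5 most like. Of the 28 further clock genes the called ones with the smallest p are named, at most 4 in each direction and contrast, and of other lists at most 3. On simulated reads for fluoxetine in WT (17810 genes, 200 changed in each of 3 simulations) limma recovered 13.3% of 1.1-fold, 57.3% of 1.2-fold and 98% of 1.5-fold changes. False calls numbered 3 to 6 per simulation. A member not called may thus still have changed by a small fold.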

Additional observations from a re-analysis of the deposited data

Results flagged for a closer look

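In 10 of 120 groups of 5 libraries tested for a single library far from the rest, 1 library stood apart. Chance alone would set apart about 1 in 20 such groups. Clock and Nr1d2 were high in the same 2 libraries. In WT lithium male replicate 5 they were at 4330 and 3990, and in WT vehicle female replicate 2 at 3390 and 3520. Nr1d2 was also high in Het vehicle female replicate 2, at 3060. Dbp was high in Het fluoxetine male replicate 1 (1970), Het vehicle female replicate 3 (1880) and WT vehicle male replicate 4 (1920), and low in Het lithium female replicate 3 (1270). Per2 was low in Het lithium male replicate 4, at 1160.

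The response to fluoxetine differed between the genotypes by the test of the difference itself in 5 members, where 24% of all genes were called. The difference, Het minus WT, was -0.319 for Per1, -0.2 for Per3, -0.335 for Nr1d1, 0.18 for Clock and 0.3 for Nr1d2 on the log2 scale. Of these, Nr1d2 alone was called after GC correction (7.78% of all genes), and none with the library term (0.0449%). That term covers 9 of the 10 Het fluoxetine libraries. With 1 library left out Per3 kept its call in 14 of 40 fits and Per1 in 31 of 40.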

How the results depend on the processing

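The 4 members called under fluoxetine in WT mice, averaged over the sexes, were called under every alternative of that contrast. With the groups fitted alone Cry1 was called too, which made 5. In 4 other contrasts the count of members called moved by more than 1.5 times. The share of all genes called is given beside each count. For genotype in fluoxetine (5, 39.5%) it was 1 after GC correction (12.3%), 0 with the library term (0.0393%) and 0 with the Rps6-ps4 term (0.0842%). For fluoxetine in Het (8, 39%) it was 0 with the library term (0.275%) and 1 with the Rps6-ps4 term (1.86%). For the genotype by fluoxetine interaction (5, 24%) it was 1 after GC correction (7.78%), 0 with the library term (0.0449%) and 0 with the Rps6-ps4 term (0.236%). With 1 library left out the interaction count was 3 to 6. It was 3 without any one of Het fluoxetine female replicate 2, Het fluoxetine male replicate 3, Het vehicle female replicate 3, Het vehicle male replicate 4, WT fluoxetine male replicate 4, WT vehicle female replicate 2 or WT vehicle male replicate 2. For lithium in WT (2, 19.2%) the count was 1 with the groups fitted alone and 2 to 4 with 1 library left out, 4 without WT vehicle female replicate 2. Clock changed sign after GC correction in fluoxetine in Het (-0.056), genotype in fluoxetine (-0.00626) and the interaction (-0.0123), and with the library term in fluoxetine in Het (-0.04). The cause was not tested, except that the library term takes up 9 of 10 Het fluoxetine libraries. Pairing by replicate number was not seen, as same-numbered libraries had a median r of 0.0004 over 330 pairs, of which 54 were over 0.1. Libraries of different numbers had a median r of 0.0008 over 1320 pairs, of which 247 were over 0.1. These medians cannot tell whether the numbers mark litters or another shared origin. With the replicate number as a block the counts were 6 for genotype in fluoxetine, 4 for fluoxetine in WT, 8 in Het, 2 for lithium in WT and 4 for the interaction, where Per3 was not called (adjusted p = 0.0532). Correlated pairs numbered 13, and 11 to 13 under the alternatives.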

Other observations

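Arntl2, the paralogue of Arntl, was the 1 gene of the 28 further clock genes called between the genotypes in vehicle, with mean normalised reads of 277 (Het) and 224 (WT), a log2 fold of 0.32 (SE 0.07, limma adjusted p = 0.017). Between the genotypes in vehicle it was at 0.31 after GC correction and 0.35 with the library term. The WT vehicle libraries are also the control of fluoxetine and lithium in WT, where Arntl2 was called at 0.37 and 0.38. Mean Arntl2 was 286 in WT fluoxetine, 290 in WT lithium, 289 in Het fluoxetine and 277 in Het lithium. In Het mice its fold was 0.06 under fluoxetine and 0.005 under lithium, and that of Npas2 was -0.10 and 0.03, none of them called. With the 4 vehicle groups fitted alone 0 of the 28 genes were called. Under lithium in Het mice limma called 0 of the 28. Usp2 was closest, at a log2 fold of 0.16 (limma adjusted p = 0.0507), and was called in 8 of 11 alternatives.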
